A study of Mus musculus with 9 samples.

Results

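The smooth muscle and pericyte genes of mouse ear dermis were a set of 10 genes, of 52550 genes in the count table. They were chosen by name as markers of the cells that form the wall of blood vessels and the arrector muscles of hair follicles, by a rule that names genes and sets no limit on a measured value. Of the 10, 8 encode parts of the smooth muscle contractile apparatus and its cytoskeleton (Acta2, Myh11, Tagln, Cnn1, Actg2, Lmod1, Smtn and Des), and 2 mark pericytes (Rgs5 and Pdgfrb). All 10 had enough counts to be tested, along with 22430 genes in all.

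RNA was sequenced from ear dermis of wild-type C57BL/6 mice aged 8 weeks, in 9 libraries that formed 3 groups of 3. The VAS+H2O group received vaseline on the ears for 5 days and water by gavage for 10 days. The IMQ+H2O group received imiquimod cream, which induces psoriasis-like dermatitis, in place of vaseline. The IMQ+XYF group received imiquimod and, in place of water, 200 µl of XYF (Xiao-Yin-Fang), a herbal decoction from 5 herbs, at 23.3 mg/g. The labels give this dose once a day, and the study elsewhere describes more frequent gavage. The gavage began 5 days before the topical treatment and was given to all mice, and no group received vaseline with XYF. The methods name a pair of mice as the source of the RNA. This can mean a pair pooled for each library, or a pair in all, which would be fewer animals than the libraries of a group. The study's figure captions give n = 3 for each group. How mice map to libraries was not stated, so that p-values measure only the spread between these libraries. Whether that spread is between animals or technical is not known.

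Smooth muscle cells contract when myosin II, whose heavy chain in these cells is Myh11, pulls on filaments of smooth muscle actin (Acta2 and Actg2). Calponin (Cnn1), transgelin (Tagln, also named SM22) and smoothelin (Smtn) bind these filaments, and leiomodin 1 (Lmod1) promotes their assembly. The intermediate filament desmin (Des) ties the contractile units together, in smooth muscle and, in larger amounts, in skeletal muscle. Many of these genes are driven by serum response factor with its coactivators of the myocardin family, at DNA elements named CArG boxes. Pericytes lie on capillaries and small venules, depend on signals from endothelial platelet-derived growth factor through the receptor Pdgfrb, and carry the G protein regulator Rgs5. In skin, both cell types surround the vessels of the dermal plexus, which widen and grow in psoriatic inflammation.

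The 9 libraries held from 28756305 to 79836881 counts, and mitochondrial genes took from 8.21% to 14.3% of them. Counts of replicates were further apart than counting error gives (chi-squared over its degrees of freedom between 34 and 196). Dermal fibroblast genes were strong in every library, with a summed level of a 10-gene list from 11938 to 28194 CPM (the share of each library's counts, scaled by TMM factors), as the dermis label states. IMQ+XYF replicate 1 stood apart in other cell types, with an epidermis list (10 genes) at 18131 CPM against 2791 to 8221 in the other libraries, and a skeletal muscle list (15 genes) at 198 CPM against 867 to 4278. Counts over gene lists were repeated with each of the 9 libraries left out in turn, an alternative chosen after the data were seen, and these values stand beside the lists they moved most. Counts of the 10 genes ran from 29 for Cnn1 in VAS+H2O replicate 1 to 33062 for Rgs5, so that none was near the floor of 3 counts.

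Levels were compared between genes as CPM per kilobase of exon. In VAS+H2O dermis, Rgs5 was highest at 77.0 ± 20.2 CPM per kilobase (SD, n = 3), followed by Acta2 at 57.1 ± 21.0, Pdgfrb at 48.6 ± 3.97, Tagln at 46.1 ± 13.1, Smtn at 33.8 ± 6.35 and Des at 31.7 ± 14.7. Each of these 6 genes overlapped its neighbour in this order. Myh11 at 12.5 ± 5.44, Lmod1 at 3.32 ± 0.543 and Actg2 at 1.20 ± 0.354 were each below the gene before without overlap, and Cnn1 at 0.605 ± 0.385 overlapped Actg2. In IMQ+H2O dermis, Acta2 came first at 136 ± 38.3 CPM per kilobase, then Tagln at 87.2 ± 4.73 and Rgs5 at 68.0 ± 12.6, with no overlap between these 3 or between Rgs5 and Pdgfrb at 45.0 ± 5.52. The place of Rgs5 at the head of the order was thus taken by Acta2, while Pdgfrb, Des and Smtn still overlapped in turn. In IMQ+XYF dermis, Acta2 at 74.1 ± 35.8, Tagln at 47.4 ± 21.6, Rgs5 at 41.6 ± 17.1 and Pdgfrb at 40.8 ± 6.18 overlapped in turn. Cnn1 had the lowest mean in all 3 groups, and Actg2, an enteric actin, overlapped Lmod1 in both imiquimod groups.

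**Figure D1:**
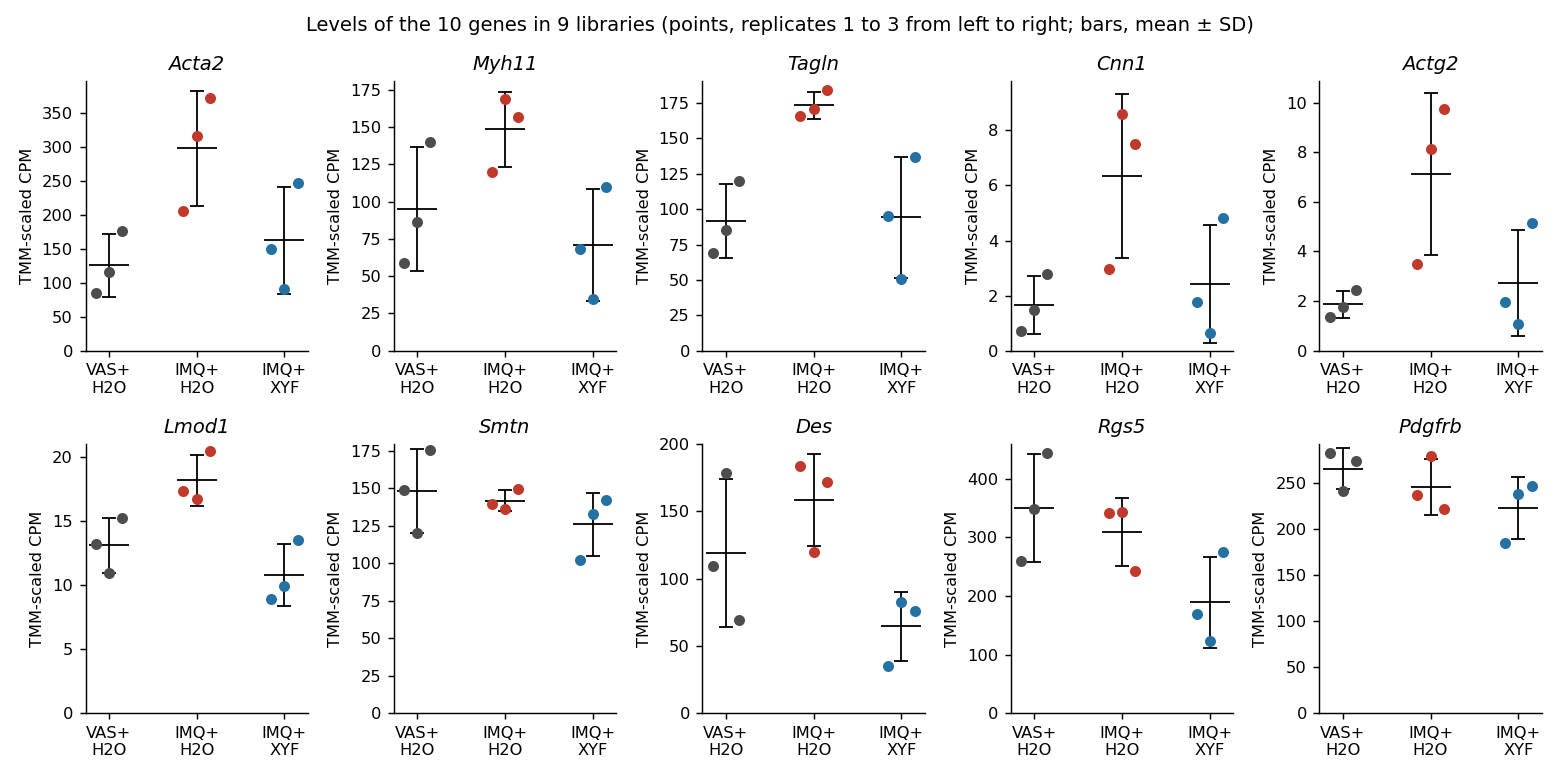
Levels of the 10 genes in TMM-scaled CPM (vertical axes, starting at 0) in each of 9 libraries, with 1 panel per gene and 3 groups on the horizontal axes. Points are libraries and bars are the mean ± SD of 3 libraries. Acta2, Tagln, Cnn1, Actg2 and Lmod1 have all IMQ+H2O points above all VAS+H2O points, while the groups of Smtn and Pdgfrb overlap throughout.

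Promoter sequences from RefSeq (GRCm38.p6), from 250 bases before to 50 bases after the start of transcription, were at hand for 6 of the 10 genes. They are shown for Acta2, Cnn1 and Lmod1, which had a window and whose IMQ+H2O libraries all lay above the VAS+H2O libraries. Capitals mark CArG boxes with 1 G or C in the core of A and T. The windows are chr19:34255324-34255623 on the minus strand for Acta2, chr9:22099003-22099302 on the plus strand for Cnn1 and chr1:135324563-135324862 on the plus strand for Lmod1, each written 5′ to 3′ in the direction of transcription.
Acta2: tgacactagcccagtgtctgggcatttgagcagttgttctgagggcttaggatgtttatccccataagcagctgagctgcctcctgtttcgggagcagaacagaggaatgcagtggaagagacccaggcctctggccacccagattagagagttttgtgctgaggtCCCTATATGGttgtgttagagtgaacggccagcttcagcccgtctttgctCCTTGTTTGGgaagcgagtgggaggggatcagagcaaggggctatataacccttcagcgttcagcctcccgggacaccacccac
Cnn1: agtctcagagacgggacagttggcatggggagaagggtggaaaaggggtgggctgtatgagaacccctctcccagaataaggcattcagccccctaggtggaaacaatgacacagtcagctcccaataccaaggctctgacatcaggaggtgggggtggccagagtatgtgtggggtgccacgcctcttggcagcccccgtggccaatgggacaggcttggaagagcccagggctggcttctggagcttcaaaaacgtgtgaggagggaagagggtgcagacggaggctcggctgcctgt
Lmod1: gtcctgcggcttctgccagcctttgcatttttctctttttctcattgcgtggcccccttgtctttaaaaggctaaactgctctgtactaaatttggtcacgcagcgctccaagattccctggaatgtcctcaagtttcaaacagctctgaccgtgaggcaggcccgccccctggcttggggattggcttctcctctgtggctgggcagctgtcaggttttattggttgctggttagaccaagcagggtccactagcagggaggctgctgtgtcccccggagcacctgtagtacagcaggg
The Acta2 window held CCCTATATGG, whose first base was at position -84 from the start site, and CCTTGTTTGG, whose first base was at position -34. Boxes of this kind were found in 9.69% of 27025 genes with a window, and a CArG box without G or C in the core in 1.81%. The latter was in none of the 6 windows. The motif equals itself when read on the other strand, so that both strands were covered. No match in the other 5 windows says only that these letters were absent from the 300 bases searched.

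The first question was how imiquimod changed vessel wall genes in the dermis, by IMQ+H2O against VAS+H2O. The actin genes Acta2 and Actg2, the actin-binding genes Tagln and Cnn1 and the assembly factor Lmod1 had higher levels in all 3 IMQ+H2O libraries than in any VAS+H2O library, by 1.38 to 3.81-fold. Myh11, Smtn, Des, Rgs5 and Pdgfrb overlapped between the groups, and the pericyte genes had fitted differences just below 0. A gene was called where the quasi-likelihood test of edgeR gave a Benjamini-Hochberg adjusted p of at most 0.05 over all tested genes and its absolute log2 fold change was at least 1. None of the 10 genes was called, against 0.994% of all tested genes. At an unadjusted edgeR p under 0.05 there were 5 of the 10, all higher, against 20.9% of all tested genes at this limit, 10.1% in the higher direction. The 5 were those whose groups did not overlap, which held for 31.5% of all tested genes and, in the higher direction, for 15.1%. DESeq2's Wald test with the same limits called 2 of the 10 genes, Acta2 and Actg2, and 4.23% of all tested genes. The median log2 fold change of the 10 genes was 0.56, beside −0.02 over all tested genes. In whole tissue, more cells of a type and more RNA per cell cannot be told apart.

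Acta2 (ENSMUSG00000035783, GRCm38 chromosome 19 from 34241090 to 34255590) encodes the actin that defines vascular smooth muscle and that activated fibroblasts also make. Its CPM was 84.9, 116 and 176 in VAS+H2O replicates 1 to 3, 206, 315 and 371 in IMQ+H2O, and 150.0, 91.1 and 247 in IMQ+XYF. The lowest IMQ+H2O library was above the highest VAS+H2O library, and IMQ+XYF lay across both. The log2 fold change of IMQ+H2O over VAS+H2O was 1.25 ± 0.40 (edgeR p 0.0122, Benjamini-Hochberg adjusted p 0.135), a 2.37-fold difference, where ± after a log2 fold change is its SE. DESeq2 gave an adjusted p of 0.0219.

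Actg2 (ENSMUSG00000059430, chromosome 6 from 83512905 to 83536265), the actin best known from gut and bladder muscle, had 1.36, 1.78 and 2.45 CPM in VAS+H2O, 3.48, 8.13 and 9.75 in IMQ+H2O, and 1.95, 1.06 and 5.13 in IMQ+XYF. IMQ+H2O replicates 2 and 3 were far above replicate 1, which was still above all VAS+H2O libraries. In IMQ+H2O it was at a log2 fold change of 1.93 ± 0.59 (edgeR p 0.0103, adjusted p 0.128), and it was called by DESeq2 (adjusted p 0.0137). The coding sequences of Acta2 and Actg2 were identical at 83.8% of positions, and no run of 50 bases was shared between their transcripts. How the authors counted reads with more than 1 alignment was not given in the sources used here, so that a split between actin genes remains uncertain.

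Cnn1 (ENSMUSG00000001349, chromosome 9 from 22099216 to 22109630), the calponin of smooth muscle that restrains the actomyosin motor, was the lowest of the 10 genes. It had 0.703, 1.47 and 2.79 CPM in VAS+H2O, 2.96, 8.59 and 7.51 in IMQ+H2O, and 1.78, 0.651 and 4.81 in IMQ+XYF. The gap between the groups was narrow, since the highest VAS+H2O library was just under the lowest IMQ+H2O library. By imiquimod it was at a log2 fold change of 1.93 ± 0.75 (edgeR p 0.0312, adjusted p 0.195).

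Tagln (ENSMUSG00000032085, chromosome 9 from 45929619 to 45936058), an early marker of the smooth muscle lineage that binds actin, varied little within IMQ+H2O. Its CPM was 69.0, 85.5 and 120.2 in VAS+H2O, 166, 170.4 and 184 in IMQ+H2O, and 95.2, 50.8 and 137 in IMQ+XYF. The IMQ+H2O libraries lay above all 6 others. Over VAS+H2O, its log2 fold change was 0.92 ± 0.33 (edgeR p 0.0207, adjusted p 0.165). The protein-coding gene Pcsk7 overlaps Tagln on the opposite strand, and counting by strand was not stated, so that reads of both genes may have been joined.

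Lmod1 (ENSMUSG00000048096, chromosome 1 from 135324807 to 135368065) nucleates actin filaments in smooth muscle. It had 13.2, 10.9 and 15.2 CPM in VAS+H2O, 17.4, 16.7 and 20.4 in IMQ+H2O, and 8.92, 9.97 and 13.5 in IMQ+XYF. Its IMQ+H2O libraries were above all others, by a smaller step than those of the actins. The log2 fold change over VAS+H2O was 0.47 ± 0.19 (edgeR p 0.0375, adjusted p 0.212).

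Myh11 (ENSMUSG00000018830, chromosome 16 from 14194535 to 14291372), the myosin heavy chain held to be the most specific marker of mature smooth muscle, had 58.7, 86.2 and 139.9 CPM in VAS+H2O, 120.1, 169 and 156 in IMQ+H2O, and 68.3, 34.7 and 109.7 in IMQ+XYF. VAS+H2O replicate 3 was above IMQ+H2O replicate 1. In IMQ+H2O its log2 fold change was 0.64 ± 0.42 (edgeR p 0.159, adjusted p 0.407), and it had an unadjusted p under 0.05 only in the fit without VAS+H2O replicate 3 among the 15 alternatives.

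Smtn, Rgs5 and Pdgfrb differed little between IMQ+H2O and VAS+H2O. Smtn (ENSMUSG00000020439, chromosome 11 from 3517523 to 3540612) had a log2 fold change of −0.06 with a 95% interval from −0.44 to 0.31. That of Rgs5 (ENSMUSG00000026678, chromosome 1 from 169655501 to 169695813) was −0.18, with an interval from −0.87 to 0.51. That of Pdgfrb was −0.11, with an interval from −0.44 to 0.21. The intervals of Smtn and Pdgfrb leave out the differences that were fitted for Acta2, Actg2, Cnn1, Tagln and Lmod1, while that of Rgs5 holds the 0.47 of Lmod1. Those fitted differences have intervals of their own, as from 0.03 to 0.90 for Lmod1, and genes were not tested against each other. For Smtn and Rgs5 the fitted difference was above 0 without VAS+H2O replicate 3, at 0.08 and 0.02.

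**Figure D2:**
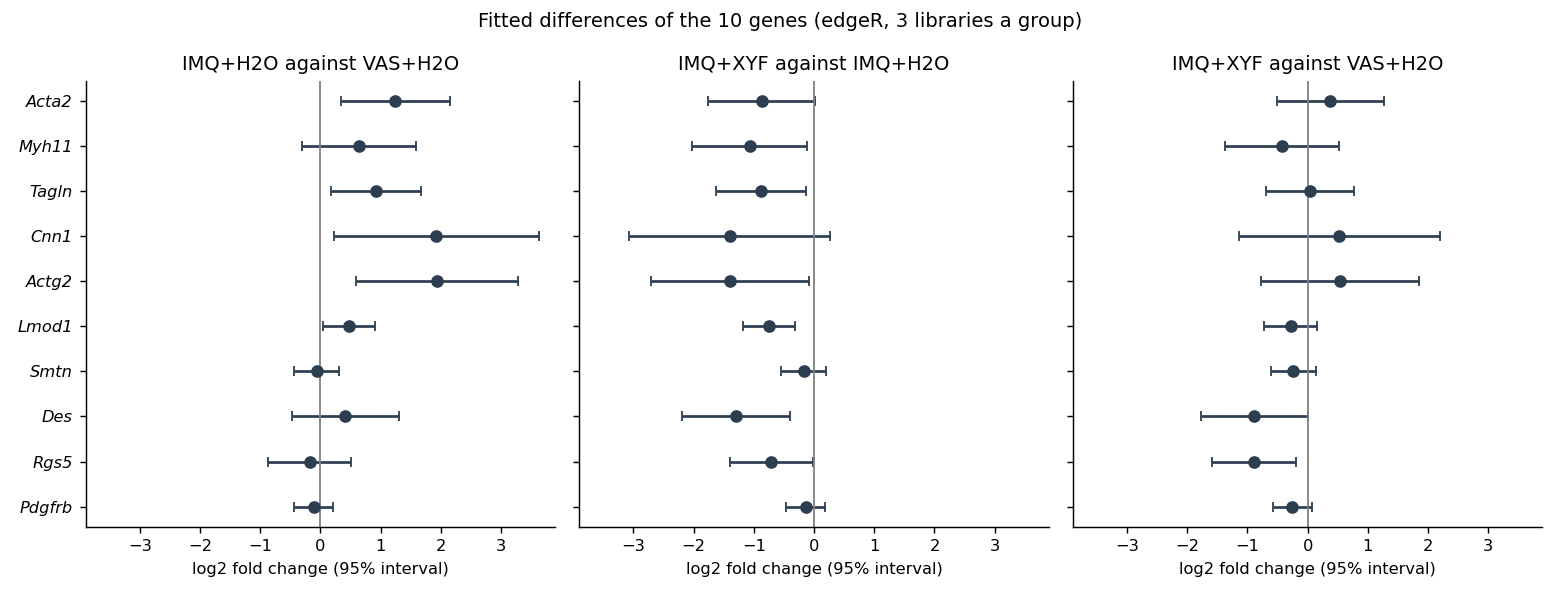
Fitted log2 fold changes of the 10 genes (points, horizontal axes) with 95% intervals (bars) from edgeR for each of the 3 comparisons, 3 libraries a group. For imiquimod, 5 intervals lie above 0, from Actg2 and Cnn1 at 1.93 to Lmod1 at 0.47. For XYF all 10 points lie below 0 and 6 intervals do, and against VAS+H2O only the interval of Rgs5 lies on 1 side of 0.

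Acta2 was also set against the pericyte genes within each library. There were 0.328, 0.333 and 0.396 Acta2 counts per Rgs5 count in VAS+H2O, 0.605, 0.917 and 1.53 in IMQ+H2O, and 0.882, 0.741 and 0.899 in IMQ+XYF. All 6 imiquimod-treated libraries were above all VAS+H2O libraries in this ratio, with or without XYF. In IMQ+XYF against VAS+H2O, the fitted log2 fold change was 0.37 for Acta2 and −0.89 for Rgs5, the denominator. The levels of both genes overlapped between these groups. The exact permutation test (two-sided) gave p = 0.1 for IMQ+H2O and for IMQ+XYF against VAS+H2O (n = 3 each), the smallest value that 3 against 3 libraries can give, and 0.3 after Benjamini-Hochberg adjustment over 9 tests. Between IMQ+XYF and IMQ+H2O the groups overlapped (exact permutation p = 0.7, n = 3 each). Acta2 per Pdgfrb averaged 0.473 ± 0.170 in VAS+H2O and 1.224 ± 0.412 in IMQ+H2O, without overlap (SD, exact permutation p = 0.1, n = 3 each). It was 0.730 ± 0.315 in IMQ+XYF, which overlapped both other groups. Rgs5 per Pdgfrb overlapped between all 3 groups, at 1.32 ± 0.363, 1.25 ± 0.172 and 0.848 ± 0.303 (SD, n = 3). These ratios do not depend on library size or scaling.

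**Figure D3:**
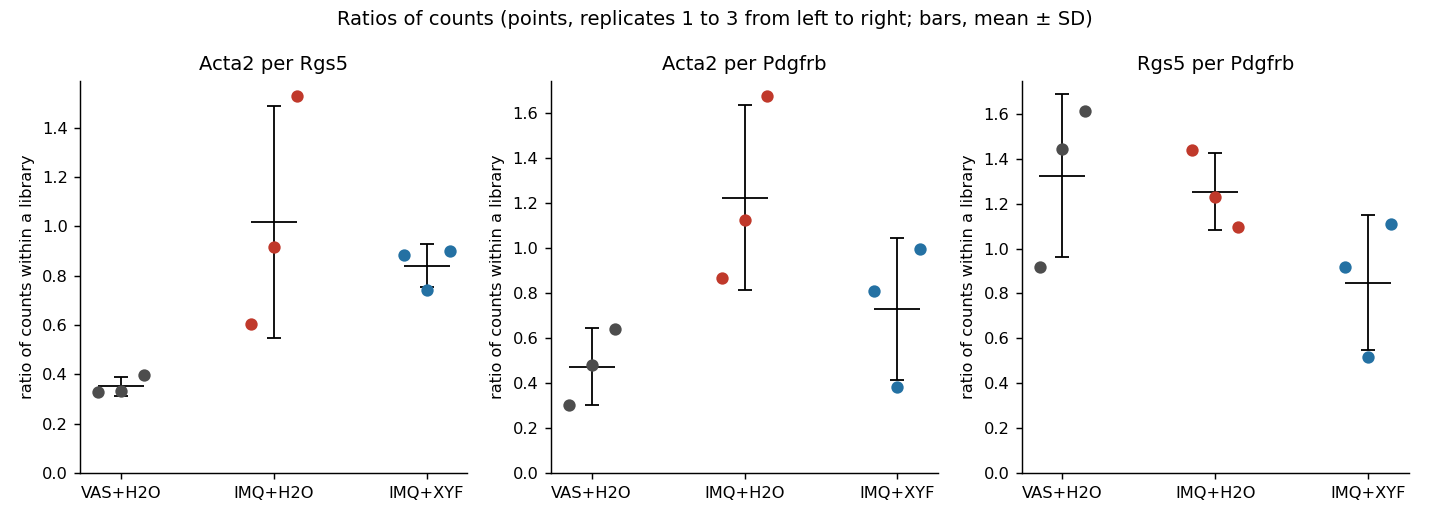
Ratios of counts within each of 9 libraries (points) for Acta2 per Rgs5, Acta2 per Pdgfrb and Rgs5 per Pdgfrb (vertical axes, starting at 0), with the mean ± SD of 3 libraries per group as bars. Acta2 per Rgs5 lies from 0.328 to 0.396 in VAS+H2O and from 0.605 to 1.53 in the 6 imiquimod-treated libraries.

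The second question was what XYF did to these genes under imiquimod, by IMQ+XYF against IMQ+H2O. It shares the IMQ+H2O libraries with the comparison above, so that a difference due to these libraries enters both with opposite sign. All 10 genes had a fitted level in IMQ+XYF below that in IMQ+H2O, where 50.7% of all tested genes were fitted above 0. The steps were near 0 for Smtn and Pdgfrb and from 1.63-fold lower for Rgs5 to 2.63-fold lower for Cnn1 and Actg2. None of the 10 genes was called by edgeR, which called 0.00892% of all tested genes, nor by DESeq2, which called 0.936%. At an unadjusted edgeR p under 0.05 there were 6 genes, all lower (Myh11, Tagln, Actg2, Lmod1, Des and Rgs5), against 11.7% of all tested genes, 5.39% in the lower direction. The groups did not overlap for 4 of the 10 (Myh11, Tagln, Lmod1 and Des), against 18.0% of all tested genes, 8.74% in the lower direction. The median log2 fold change of the 10 genes was −0.88, beside 0.005 over all tested genes.

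The count of genes at the unadjusted limit depended on single libraries. Leaving out a library also leaves fewer libraries for the test, and the share of all tested genes in these fits is not given here. In each of these fits all 10 genes were fitted below 0. Their median log2 fold change ran from −1.27 to −0.61, and was −0.85 without IMQ+XYF replicate 1. Without IMQ+XYF replicate 1, the library rich in epidermal and poor in skeletal muscle transcripts, 2 genes were left at an unadjusted edgeR p under 0.05, Lmod1 and Des. Without IMQ+XYF replicate 2, which had the lowest levels of Acta2, Myh11, Tagln, Cnn1 and Actg2 in its group, there were 3 (Tagln, Lmod1 and Des). Without IMQ+XYF replicate 3, which had the highest, there were 8. There were 3 without IMQ+H2O replicate 2 (Tagln, Lmod1 and Des) and 3 without IMQ+H2O replicate 3 (Lmod1, Des and Rgs5). Lmod1 and Des were at an unadjusted p under 0.05 in all 15 alternatives.

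Lmod1 had the smallest edgeR p of the 10 genes in this comparison. Its log2 fold change was −0.75 ± 0.19 (edgeR p 0.00371, Benjamini-Hochberg adjusted p 0.363). Its DESeq2 adjusted p was 0.0227, with a fold below the limit for a call. All 3 IMQ+XYF libraries were under the lowest IMQ+H2O library, and they overlapped VAS+H2O.

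Myh11 had a log2 fold change of −1.07 ± 0.42 (edgeR p 0.0329, adjusted p 0.396), and Tagln of −0.88 ± 0.33 (edgeR p 0.0253, adjusted p 0.384). In both genes the highest IMQ+XYF library, replicate 3, was under the lowest IMQ+H2O library. Acta2 was at −0.87 ± 0.39 (edgeR p 0.0544, adjusted p 0.429), Actg2 at −1.39 ± 0.58 (edgeR p 0.0404, adjusted p 0.409) and Cnn1 at −1.40 ± 0.74 (edgeR p 0.0908, adjusted p 0.480). In these 3 genes IMQ+XYF replicate 3 was above IMQ+H2O replicate 1.

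Des (ENSMUSG00000026208, chromosome 1 from 75360329 to 75368579) followed another course than the actins. Its CPM was 109, 179 and 69.4 in VAS+H2O, 183, 119.6 and 172 in IMQ+H2O, and 35.4, 82.5 and 75.9 in IMQ+XYF. The IMQ+XYF libraries were under all IMQ+H2O libraries, and VAS+H2O spanned both. The log2 fold change of IMQ+XYF over IMQ+H2O was −1.29 ± 0.40 (edgeR p 0.0102, adjusted p 0.364, DESeq2 adjusted p 0.0576), and that of IMQ+H2O over VAS+H2O was 0.41 ± 0.39 (edgeR adjusted p 0.582).

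Skeletal muscle transcripts moved with Des. The skeletal muscle list, which holds fast myosin, troponin and muscle actin genes, summed to 2733, 4278 and 867 CPM in VAS+H2O, 3740, 1949 and 4134 in IMQ+H2O, and 198, 1516 and 955 in IMQ+XYF. The 3 lowest libraries were the same for the list and for Des, and IMQ+XYF replicate 1 was the lowest in both. Over the 9 libraries the log2 level of Des and that of the list correlated with Pearson's r of 0.977 (exact permutation p = 4.68e-05, adjusted 0.000468 over 20 relations) and Spearman's rho of 0.933 (exact permutation p = 0.00075, adjusted 0.00375). Pearson's r was 0.946 without VAS+H2O replicate 3 and IMQ+XYF replicate 1, and 0.969 over the deviations from group means. The permutations ignored the groups, so that these p-values also take in differences between groups. The r over deviations was not tested. For the other 9 genes r with this list ran from 0.083 to 0.566, and none passed the adjustment. In XYF-treated dermis, all 15 genes of the list had fitted levels below those of IMQ+H2O, with a median log2 fold change of −1.71. At an unadjusted edgeR p under 0.05 there were 11 of 15, against 5.39% of all tested genes lower, and 0 were called by edgeR. DESeq2 called Actn3 and Pvalb lower (adjusted p 0.0181 and 0.0387), against 0.936% of all tested genes called. With each library left out in turn, 1 (without IMQ+H2O replicate 3) to 14 of 15 were at that unadjusted limit, and 5 without IMQ+XYF replicate 1, where the median was −1.26. The part of skeletal muscle RNA in the level of Des was not tested. There were 4.002, 4.18 and 8.01 Des counts per 100 counts of the list in VAS+H2O, 4.91, 6.14 and 4.16 in IMQ+H2O, and 17.9, 5.44 and 7.95 in IMQ+XYF. The RNA Gm15179, antisense to Des, could add reads to it where counting ignores the strand.

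Rgs5, which is among the strongest markers of pericytes, had 259, 349 and 443 CPM in VAS+H2O, 341, 344 and 243 in IMQ+H2O, and 170.0, 123 and 275 in IMQ+XYF. IMQ+XYF replicate 3 overlapped both other groups, and replicates 1 and 2 were under all 6 libraries of the other groups. The log2 fold change of IMQ+XYF over IMQ+H2O was −0.71 ± 0.31 (edgeR p 0.0460, adjusted p 0.420). Pdgfrb, the receptor that pericytes share with dermal fibroblasts, was the steadiest gene along with Smtn. Its libraries lay between 185 and 283 CPM, and its log2 fold change was −0.14 with an interval from −0.46 to 0.18 (−0.018 without IMQ+XYF replicate 1). The level of Smtn lay between 102 and 176 CPM, and its log2 fold change was −0.17, with an interval from −0.54 to 0.20 (−0.040 without IMQ+XYF replicate 1).

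The third question was how far dermis treated with both agents (IMQ+XYF) lay from control dermis (VAS+H2O). None of the 10 genes was called by edgeR, which called 1.20% of all tested genes, nor by DESeq2, which called 3.17%. None of the 10 had groups that did not overlap, which was the case for 22.1% of all tested genes. An unadjusted edgeR p under 0.05 was found for Rgs5 alone, against 18.3% of all tested genes. Its log2 fold change was −0.89 ± 0.31 (edgeR p 0.0179, adjusted p 0.167), and without IMQ+XYF replicate 1 no gene was left at this limit. Des was at −0.88 ± 0.39 (edgeR p 0.0525, adjusted p 0.278). The other 8 were between −0.42 for Myh11 and 0.54 for Actg2. The intervals were wide for the lowest genes, from −1.14 to 2.20 for Cnn1 and from −0.78 to 1.85 for Actg2, and narrow for Pdgfrb, from −0.57 to 0.07. The sign of Acta2, Actg2 and Cnn1 turned without IMQ+XYF replicate 3, to −0.06, −0.30 and −0.44.

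**Figure D4:**
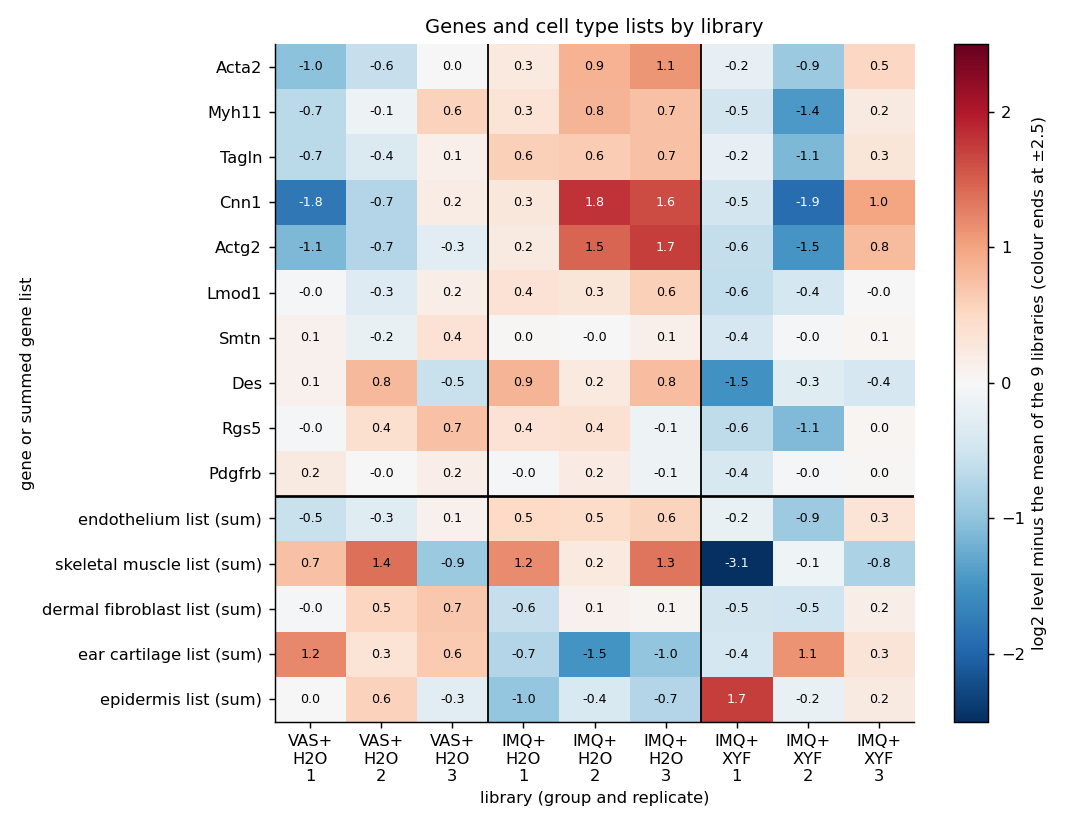
Log2 level of the 10 genes and of 5 summed cell type lists (rows) in each of 9 libraries (columns), minus the mean of that row over the 9 libraries, with the value printed in each cell and colours ending at ±2.5. Acta2, Myh11, Tagln, Cnn1 and Actg2 follow the endothelium list from library to library, and Des follows the skeletal muscle list, which is lowest in IMQ+XYF replicate 1.

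Across libraries, Acta2, Myh11, Tagln, Cnn1 and Actg2 went together. Pearson's r between pairs of these 5 genes over the 9 libraries ran from 0.862 to 0.986 (10 pairs), and from 0.836 to 0.983 over deviations from the group means, so that replicates of 1 group differed in these genes as a block. Over all 45 pairs of the 10 genes r ran from −0.061 to 0.986. Rgs5 had an r of 0.768 with Myh11 and 0.369 with Acta2, and 0.856 and 0.707 over deviations from group means. Each library contributes its own depth and tissue makeup to all of these values, and they are given as a description.

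Endothelial transcripts followed the same course. A list of 12 endothelial genes summed to 821, 969 and 1292 CPM in VAS+H2O, 1701, 1655 and 1759 in IMQ+H2O, and 1058, 637 and 1519 in IMQ+XYF. All 12 were fitted higher in IMQ+H2O than in VAS+H2O, with a median log2 fold change of 0.69. At an unadjusted edgeR p under 0.05 there were 6 of them, against 10.1% of all tested genes higher. All 12 were fitted lower in IMQ+XYF than in IMQ+H2O, with a median of −0.66. At the unadjusted limit there were 7 of them, against 5.39% of all tested genes lower. These counts turned on single libraries, with a range from 1 (without VAS+H2O replicate 1) to 10 for imiquimod and from 1 (without IMQ+H2O replicate 3, IMQ+XYF replicate 1 or IMQ+XYF replicate 2) to 12 for XYF. The median for XYF was −0.65 without IMQ+XYF replicate 1. EdgeR called none in any comparison, and DESeq2 called Egfl7, a factor secreted by endothelium, in IMQ+H2O against VAS+H2O (log2 fold change 1.01, DESeq2 adjusted p 0.00799). DESeq2 called 4.23% of all tested genes there. Over the 9 libraries the log2 level of the list correlated with that of Tagln with Pearson's r of 0.997 (exact permutation p = 5.51e-06, adjusted 0.00011 over 20 relations) and Spearman's rho of 0.983 (adjusted 0.000992, exact permutation). Pearson's r was 0.991 without VAS+H2O replicate 1 and IMQ+XYF replicate 2, and 0.996 over deviations from group means. Here too the permutations ignored the groups, and the r over deviations was not tested. For Acta2, Myh11, Cnn1 and Actg2, r was 0.933, 0.934, 0.937 and 0.913, and 0.891, 0.953, 0.885 and 0.820 over deviations from group means. Lmod1 was at 0.784 (exact permutation p = 0.0146, adjusted 0.0417) and 0.581 over deviations. Rgs5 was at 0.590 over all libraries and at 0.878 over deviations, and Des, Smtn and Pdgfrb at 0.306, 0.269 and 0.016 over all libraries. The adjusted p (exact permutation) of these last 4 was 0.238 or higher. The part of vessel content in the levels of the contractile genes was not tested.

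**Figure D5:**
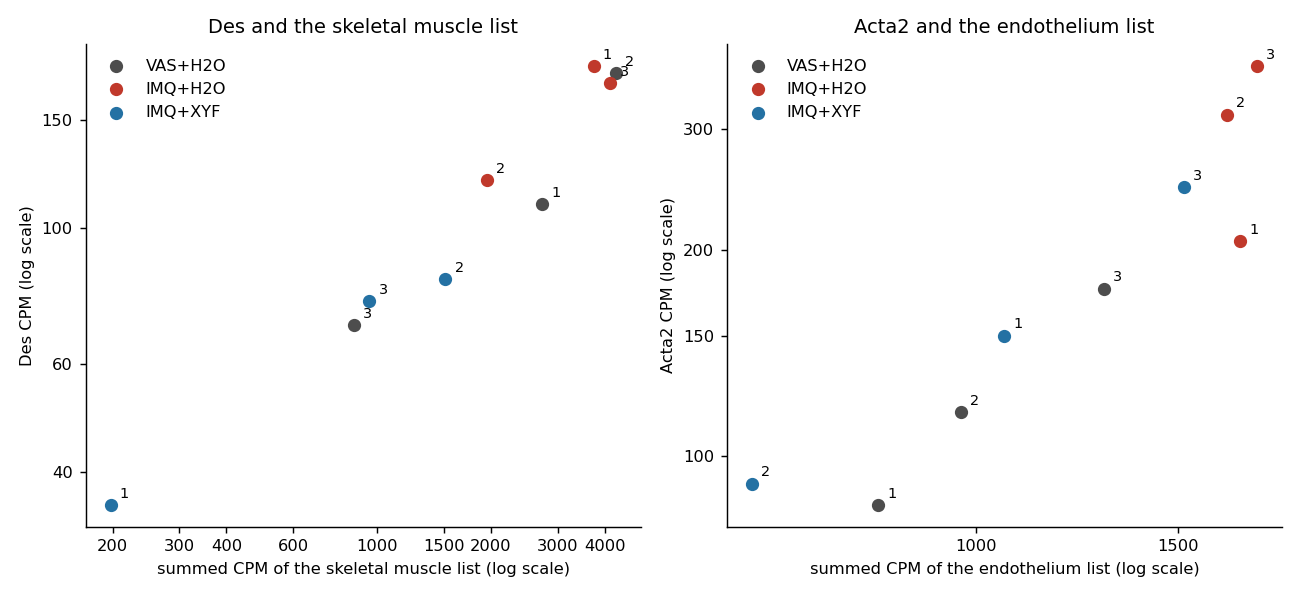
Des CPM against the summed CPM of the skeletal muscle list (left) and Acta2 CPM against that of the endothelium list (right) in 9 libraries, on log axes. Each point is a library, coloured by group and numbered by replicate. Libraries high in the skeletal muscle list are high in Des (r 0.977 over the 9 libraries), and those high in the endothelium list are high in Acta2 (r 0.933).

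Markers of other cell types differed between the groups as well. The dermal fibroblast list had 5 of 10 genes lower in IMQ+H2O than in VAS+H2O at an unadjusted edgeR p under 0.05 (3 without VAS+H2O replicate 2). The share over all tested genes was 10.8%. The median log2 fold change of the list was −0.57. In IMQ+XYF against IMQ+H2O, 0 of its genes were at that limit, against 11.7% of all tested genes. Of 8 genes of activated fibroblasts, which can also make Acta2, edgeR called only the protease inhibitor Timp1 in IMQ+H2O against VAS+H2O (log2 fold change 3.42, edgeR adjusted p 0.0279), and the median was −0.59. DESeq2 called Timp1 and Tnc higher and Fap and Lrrc15 lower. Over all tested genes, edgeR called 0.994% and DESeq2 called 4.23% in IMQ+H2O against VAS+H2O. The ear cartilage list lay between 1069 and 1941 CPM in VAS+H2O, 300 and 504 in IMQ+H2O, and 621 and 1829 in IMQ+XYF, and edgeR called Col2a1, Col9a3 and Matn3 lower in IMQ+H2O. All 9 tested cartilage genes were lower there at an unadjusted edgeR p under 0.05 and were called by DESeq2, with a median log2 fold change of −1.93, against 10.8% of all tested genes lower at the unadjusted limit. With XYF, 8 of the 9 were higher than in IMQ+H2O at that limit (log2 fold changes of the 9 from 0.95 to 1.87), against 6.35% of all tested genes. EdgeR called 0 and DESeq2 called 5 of the 9, against 0.00892% and 0.936% of all tested genes. The epidermis list lay between 4819 and 18131 CPM in IMQ+XYF, above 2791 to 4219 in IMQ+H2O. EdgeR called 0 and DESeq2 called 2 of its 10 genes in this comparison, against the same 0.00892% and 0.936% of all tested genes. At the unadjusted limit 9 of the 10 were higher with XYF (median 1.45), against 6.35% of all tested genes. That count was 1 without IMQ+XYF replicate 1 (median 0.65), 2 without IMQ+H2O replicate 1, 4 without IMQ+H2O replicate 3, and from 8 to 10 without any other single library. The leukocyte list (8 genes) had Itgam, S100a8 and S100a9 called higher by edgeR in IMQ+H2O, against 0.994% of all tested genes called. Their part in the levels of the 10 genes was not tested.

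Further genes of the contractile apparatus were read from a list of 24 tested genes. None was called by edgeR in any comparison. In IMQ+H2O against VAS+H2O, 5 were higher and 2 lower at an unadjusted edgeR p under 0.05, with a median log2 fold change of 0.19, against 10.1% of all tested genes higher and 10.8% lower. In IMQ+XYF against IMQ+H2O, 0 were higher and 7 lower, with a median of −0.34, against 6.35% and 5.39%. The count of lower genes was 2 without IMQ+XYF replicate 1 (median −0.18), 1 without IMQ+H2O replicate 3, 4 without IMQ+H2O replicate 1, and from 5 to 8 without any other single library. The skeletal muscle list was lower in the same comparison (median −1.71). The part of skeletal muscle RNA in the levels of these 24 genes was not tested. Cald1, whose product caldesmon binds actin and holds back myosin, had 147, 146 and 167 CPM in VAS+H2O, 195, 204 and 259.6 in IMQ+H2O, and 201, 188 and 237 in IMQ+XYF. The 6 imiquimod-treated libraries were above all VAS+H2O libraries (log2 fold change 0.52 and 0.44, edgeR adjusted p 0.0971 and 0.140). Actn1, an actin crosslinker of many cells, was placed likewise, at 0.34 and 0.38. The integrin gene Itga8 went the other way, with 39.9, 28.8 and 40.7 CPM in VAS+H2O, 16.0, 18.8 and 12.2 in IMQ+H2O, and 17.7, 30.8 and 15.8 in IMQ+XYF. Its log2 fold change in IMQ+H2O was −1.22 ± 0.28 (edgeR p 0.00186, adjusted p 0.0700, DESeq2 adjusted p 0.00223). Mustn1, a small nuclear protein of the musculoskeletal system, had 45.1, 64.2 and 44.2 CPM in VAS+H2O, 103, 64.0 and 89.1 in IMQ+H2O, and 35.4, 41.4 and 48.8 in IMQ+XYF. It was lower in IMQ+XYF than in IMQ+H2O without overlap (log2 fold change −1.03, edgeR p 0.0011, adjusted p 0.360, DESeq2 adjusted p 0.0052). Ppp1r14a, an inhibitor of myosin phosphatase named here after its values were seen, was called by DESeq2 in IMQ+H2O (log2 fold change 1.32, edgeR adjusted p 0.134, DESeq2 adjusted p 0.0241).

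Transcriptional regulators of smooth muscle genes (11 tested, 1 listed gene not tested) were read from a list as well. In IMQ+H2O against VAS+H2O, 1 was higher and 4 lower at an unadjusted edgeR p under 0.05, against 10.1% and 10.8% of all tested genes. The median log2 fold change was −0.41. Without VAS+H2O replicate 3, where 10 genes of the list were tested, 1 was higher and 1 lower. Without IMQ+H2O replicate 1 there were 0 and 2. EdgeR called none in any comparison, and DESeq2 called Gata6 in IMQ+XYF against VAS+H2O, where it called 3.17% of all tested genes. The lowest fitted log2 fold change of the list in that comparison was −2.96, for another gene, which neither method called. Mkl2, a coactivator of serum response factor, was the 1 that was higher, with a log2 fold change of 0.26 (edgeR p 0.0247, adjusted p 0.176), and it was lower in IMQ+XYF than in IMQ+H2O by a log2 fold change of −0.41 (edgeR p 0.00217, adjusted p 0.360). Gata6, a factor linked to the quiescent state of vascular smooth muscle, had 4.25, 6.36 and 8.44 CPM in VAS+H2O, 2.997, 3.59 and 2.95 in IMQ+H2O, and 3.17, 1.51 and 2.34 in IMQ+XYF. Both imiquimod groups lay under all VAS+H2O libraries, with log2 fold changes of −1.0 and −1.44 (edgeR adjusted p 0.140 and 0.0630, DESeq2 adjusted p 0.0524 and 0.00151). Foxo4, which restrains myocardin, was lower in IMQ+XYF than in VAS+H2O with an edgeR adjusted p of 0.0482 and a log2 fold change of −0.50, under the limit for a call. Fhl2, a LIM protein that binds serum response factor, was higher in IMQ+XYF than in IMQ+H2O (log2 fold change 0.97, edgeR p 0.00243, adjusted p 0.360).

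Receptors, channels and signalling genes of contraction were read from a list of 20 tested genes. In IMQ+H2O against VAS+H2O, 1 was higher and 2 lower at an unadjusted edgeR p under 0.05 (median log2 fold change −0.06), against 10.1% and 10.8% of all tested genes. In IMQ+XYF, 6 were lower than in IMQ+H2O (median −0.59), against 5.39% of all tested genes, 8 were lower than in VAS+H2O (median −0.41), against 8.76%, and 0 were higher at that limit in either, against 6.35% and 9.58%. Leaving out IMQ+XYF replicate 1 gave 4 and 6 lower, with medians of −0.53 and −0.37, and over all 9 libraries left out in turn the counts ran from 4 to 11 (without IMQ+XYF replicate 3) and from 4 (without VAS+H2O replicate 3) to 10. None was called by edgeR. Casq2, which stores calcium in the reticulum of cardiac, slow skeletal and smooth muscle, had 6.38, 7.67 and 3.47 CPM in VAS+H2O, 4.51, 3.13 and 6.32 in IMQ+H2O, and 1.48, 1.75 and 2.22 in IMQ+XYF. The IMQ+XYF libraries were under all 6 others, with a log2 fold change of −1.36 against IMQ+H2O (edgeR adjusted p 0.364, DESeq2 adjusted p 0.0286) and of −1.68 against VAS+H2O (edgeR adjusted p 0.0536, DESeq2 adjusted p 0.000522). The skeletal muscle list was lower in the same comparisons (median −1.71 and −1.54). The part of skeletal muscle RNA in the level of Casq2 was not tested. Gucy1a3, a subunit of the nitric oxide receptor that relaxes vessels, had 23.7, 29.1 and 40.6 CPM in VAS+H2O, 28.7, 33.3 and 29.0 in IMQ+H2O, and 16.6, 13.0 and 20.4 in IMQ+XYF. It was also lowest in the 3 IMQ+XYF libraries, at −0.86 against IMQ+H2O and −0.90 against VAS+H2O (edgeR adjusted p 0.363 and 0.0750). Adra1b, an adrenergic receptor, was at −1.19 against VAS+H2O (edgeR adjusted p 0.0966, DESeq2 adjusted p 0.0126), and the calcium release channel gene Itpr1 at −0.57 in IMQ+H2O (edgeR p 0.00605).

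Further pericyte genes (18 tested) included none that edgeR called. In IMQ+H2O against VAS+H2O, 2 were higher and 2 lower at an unadjusted edgeR p under 0.05, with a median log2 fold change of 0.10, against 20.9% of all tested genes in both directions. In IMQ+XYF against IMQ+H2O, 1 was higher and 6 lower, with a median of −0.38, against 6.35% and 5.39% of all tested genes. Against VAS+H2O 0 were higher and 6 lower, with a median of −0.33, against 9.58% and 8.76%. With each library left out in turn the lower genes numbered 4 to 9 and 4 to 8, and 5 in both without IMQ+XYF replicate 1. Abcc9, the regulatory subunit of a potassium channel of mural cells, had 38.1, 46.9 and 59.96 CPM in VAS+H2O, 40.9, 49.8 and 47.3 in IMQ+H2O, and 25.6, 21.4 and 34.8 in IMQ+XYF. All IMQ+XYF libraries were below all others, with log2 fold changes of −0.75 and −0.82 (edgeR adjusted p 0.364 and 0.0835). Heyl, a target of Notch signalling, and the nucleotide receptor P2ry14 were likewise lowest in IMQ+XYF, at −0.77 and −0.89 against IMQ+H2O. Art3, of the ADP-ribosyltransferase family, had 33.8, 36.5 and 35.6 CPM in VAS+H2O, 54.5, 41.7 and 47.8 in IMQ+H2O, and 28.4, 27.8 and 31.3 in IMQ+XYF. Its 3 groups did not overlap at all, with log2 fold changes of 0.44 by imiquimod (edgeR adjusted p 0.0866) and −0.72 by XYF (edgeR p 0.000149, adjusted p 0.328).

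The ligands of the PDGF family and its other receptor (5 tested) had 0 genes called and 0 at an unadjusted edgeR p under 0.05 for imiquimod or for XYF. At the unadjusted limit there were 20.9% and 11.7% of all tested genes. Pdgfb, the ligand through which endothelium holds pericytes, had a log2 fold change of 0.34 in IMQ+H2O (edgeR p 0.196) and of −0.49 in IMQ+XYF against IMQ+H2O (edgeR p 0.0767). Pdgfa was at −0.27 in IMQ+XYF against VAS+H2O (edgeR p 0.0274, adjusted p 0.205).

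The genes outside the set whose pattern over the 9 libraries was most like the mean of the 8 contractile genes were Ptprb, Fzd4, Rph3al, Sh2d3c, Ace, Grina, Abi3 and Mmrn2, with Pearson's r from 0.955 to 0.967. Ptprb, a phosphatase of endothelium, had the highest r and 91.6, 125 and 162 CPM in VAS+H2O, 213, 197 and 225 in IMQ+H2O, and 108, 76.1 and 169 in IMQ+XYF. As for Tagln, the IMQ+H2O libraries were above all others. Most like the mean of Rgs5 and Pdgfrb were Frat1, Armc10, Lifr, Gpm6a, Tspan13, Efna1, Nrn1 and the endothelin receptor gene Ednra, with r from 0.952 to 0.988. These r values are the highest of many genes over 9 libraries and are given without a test.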

How the data were processed

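The series was mouse, with 9 libraries from ear dermis in 3 groups of 3, grouped by their labels. The 10 genes, the gene lists and the rule for naming genes were chosen with earlier results of these data known. The rule named all 10 genes and, of each list, the genes called or else up to 4 with the smallest unadjusted p. The authors deposited raw read counts per Ensembl gene, without normalization. Per the labels and methods, total RNA libraries were made with a TruSeq kit and aligned with STAR (version 2.5 in the submitters' processing notes) to GRCm38, and the authors tested with DESeq2. The counter, its use of strand and of reads with several alignments were not given in the sources used here. The processing notes also name DESeq 1.22.1, Cuffnorm and FastQC.

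Of 52550 genes, 16554 had no count. The counts were fitted with edgeR 4.0.16 (R 4.3.3): filterByExpr left 22430 genes, libraries were scaled by TMM factors, and all 9 shared 1 quasi-likelihood fit by group (common biological coefficient of variation 0.296). Standard errors came from the log2 fold change over the root of the F statistic. The scripts were tested on simulated data. Alternatives were DESeq2 1.42.0, its size factors, no filter, totals without mitochondrial genes, a replicate block, only the libraries of the groups compared, and leaving out each library. Lists were described by counts and medians without a set test. Correlations and count ratios were tested by exact permutation, two-sided (SciPy 1.17.1). For correlations all 9 libraries were permuted freely, without regard to their groups. A floor of 3 counts corresponded to 0.0376 to 0.104 CPM and covers counting error only. Exon lengths and coordinates were from GENCODE vM21 on GRCm38.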

Additional observations from a re-analysis of the deposited data

How the results depend on the processing

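The 15 alternatives gave 450 values of single-gene log2 fold changes, of which 438 kept their direction and their side of the threshold and 3 came to pass it. Under DESeq2's Wald test, the genes called by imiquimod, by XYF and against VAS+H2O numbered 948, 210 and 712, against 223, 2 and 270 in edgeR. With only the libraries of the groups compared they numbered 496, 1 and 33. Of the 10 genes, DESeq2 called 2 for imiquimod (Acta2 and Actg2), and the fit on the groups compared called 1 (Actg2). For IMQ+XYF against VAS+H2O, DESeq2 and the fit without a filter each put 2 genes at an unadjusted p under 0.05. The replicate block gave 86, 0 and 54 called genes and turned Tagln against VAS+H2O to −0.0039. Deviations from group means correlated at −0.183 to 0.125 between same-numbered libraries, with no value for other pairs beside them. These values cannot tell whether same-numbered libraries shared more than a number. The block called none of the 10 genes.

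Leaving out 1 library gave 25 to 455, 0 to 4 and 12 to 592 called genes for the 3 comparisons, with 0 of the 10 genes called in each. At an unadjusted p under 0.05 there were 2 to 6 of the 10 for imiquimod (2 without VAS+H2O replicate 1 or 2), 2 to 8 for XYF and 0 to 2 against VAS+H2O. The medians of the 10 ran from 0.43 to 0.81, −1.27 to −0.61 and −0.39 to −0.06. Fitted values that turned sign did so without VAS+H2O replicate 3 for Smtn (−0.20 to 0.075 over the fits) and Rgs5 (−0.36 to 0.023) by imiquimod, and against VAS+H2O without IMQ+XYF replicate 3 for Acta2 (−0.057 to 0.71), Cnn1 (−0.44 to 1.16), Actg2 (−0.30 to 0.96) and Tagln (−0.33 to 0.39), the last also without VAS+H2O replicate 1 (−0.13) or 2 (−0.0061). The causes were not tested. With 3 libraries a group and this spread, intervals of Cnn1 and Actg2 covered more than 2.6 log2 units, while 29 or more counts lay behind every value, so that the spread between libraries and not counting limited the precision.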
